A study of Mus musculus with 6 samples.

Results

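The 10 genes described here encode proteins that fill and seal the outermost cells of stratified epithelium, and were taken by symbol from the 48709 genes of the count table (Lor, Ivl, Flg, Flg2, Hrnr, Rptn, Cnfn, Tchh, Krtdap and Tgm3). All 10 were found once each, and all 10 passed the filter on low counts. None of them belongs to the late cornified envelope (Lce) gene family itself, which is set beside them below. The libraries were made from gingiva, the mucosa around the teeth, of C57BL/6 mice aged 12 weeks. One group of 3 libraries is labelled Plg WT, from wild-type littermates, and the other group of 3 is labelled Plg KO, from mice that lack Plg, the gene for the clot-dissolving protease precursor plasminogen. No source used here says how the allele was disrupted or that each library is its own animal. The p-values then cover only the scatter among these 6 libraries, part of which may be technical.

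When keratinocytes of a cornifying epithelium reach the surface they replace their membrane with the cornified envelope, a shell of proteins that transglutaminases cross-link. Involucrin is laid down early in that shell and loricrin later, while filaggrin and its relatives bundle keratin filaments and are in part cross-linked into the shell. The filaggrin-type proteins (filaggrin, filaggrin-2, hornerin, repetin and trichohyalin) each join an S100-like calcium-binding start to a long run of repeats, and their genes lie beside those of loricrin, involucrin, the Lce proteins and the small proline-rich (Sprr) proteins in the epidermal differentiation complex. Gingiva that faces the mouth cornifies, in part keeping its nuclei, whereas the sulcus and the lining next to the tooth do not.

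Keratins Krt14 and Krt76, the latter a keratin of cornifying oral mucosa, were the most abundant of 9 markers of keratinised oral epithelium, which summed to 29344 to 33888 CPM over the Plg WT libraries and 25047 to 32483 CPM over the Plg KO libraries (CPM, counts-per-million, is a gene's count relative to its library's total, adjusted with TMM factors). Krt14 also counts among the markers of basal epithelium. Krt4 and Krt13, keratins of non-cornifying epithelium named after their values were seen, were more abundant than Krt76. Their means were 15358 and 7371 CPM in the Plg WT libraries and 16751 and 7114 CPM in the Plg KO libraries. Those of Krt76 were 5306 and 4005 CPM in the Plg WT and Plg KO libraries. Other tissue was present too. Skeletal muscle markers, led by Acta1 and Ckm, summed to 5574 to 10509 CPM over the Plg WT libraries and 2387 to 11038 CPM over the Plg KO libraries. Hair follicle markers were close to undetected, at a sum over 18 genes of 3.77 to 5.19 CPM for the Plg WT libraries and 3.75 to 4.91 CPM for the others, with Krt81 at 0 in every library. Total gene counts ran from 26183389 to 36429150 per library. The floor set by 3 counts was 0.0824 to 0.115 CPM across libraries and covers counting error only.

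Sequence bears on how far these genes can be measured with reads of 37 bases, because a read that fits several places in a gene may be dropped, split or kept, and no source used here gives the counting rule. In the longest annotated transcript, 18.5% of the 37-base windows of Flg occur once there and in no transcript of another gene, against 30.5% in Hrnr and 31.7% in Flg2. The share is 84.8% in Rptn, 86.7% in Tchh, 98.6% in Ivl, 99.6% in Tgm3 and 100% in Lor, Cnfn and Krtdap. These shares take each read alone. The libraries were sequenced in paired reads, and the pairing was not taken into account. The coding windows that recur most often in Flg and Hrnr, the pair of long repeat genes with substantial counts, are shown to make this concrete, from GENCODE release M21 transcripts. The Flg window occurs 9 times in the coding part and the Hrnr window 16 times.
Flg repeat window: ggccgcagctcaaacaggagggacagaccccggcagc
Hrnr repeat window: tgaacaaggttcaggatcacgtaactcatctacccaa

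Promoters of 4 members on chromosome 3 are shown. Lor was the member whose groups did not overlap, and Flg and Hrnr had the same 3 lowest libraries. Rptn, their close neighbour, did not have those 3 lowest, though Rptn and Hrnr were both highest in Plg WT 2. Each line gives the 250 bases before the RefSeq start on GRCm38.p6, 5′ to 3′ on the gene's strand, with matches to an AP-1 site (TGANTCA, the same on both strands) and to a TATA box (TATAAA on either strand) in capitals. The windows are chr3:92083143-92083392, minus strand for Lor, chr3:93273296-93273545, plus strand for Flg, chr3:93319499-93319748, plus strand for Hrnr and chr3:93393449-93393698, plus strand for Rptn.
Lor: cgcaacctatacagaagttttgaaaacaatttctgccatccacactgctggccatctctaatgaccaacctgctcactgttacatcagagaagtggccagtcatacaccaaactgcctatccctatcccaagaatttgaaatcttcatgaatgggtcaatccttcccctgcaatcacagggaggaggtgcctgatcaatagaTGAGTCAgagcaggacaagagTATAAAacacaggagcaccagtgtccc
Flg: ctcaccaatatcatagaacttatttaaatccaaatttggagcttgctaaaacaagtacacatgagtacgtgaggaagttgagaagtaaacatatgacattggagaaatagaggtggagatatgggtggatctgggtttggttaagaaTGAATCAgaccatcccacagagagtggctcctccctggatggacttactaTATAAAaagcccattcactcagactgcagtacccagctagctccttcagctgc
Hrnr: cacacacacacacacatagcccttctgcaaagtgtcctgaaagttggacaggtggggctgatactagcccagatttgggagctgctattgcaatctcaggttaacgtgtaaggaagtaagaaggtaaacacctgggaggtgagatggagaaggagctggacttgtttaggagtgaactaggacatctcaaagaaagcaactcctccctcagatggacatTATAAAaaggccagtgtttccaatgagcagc
Rptn: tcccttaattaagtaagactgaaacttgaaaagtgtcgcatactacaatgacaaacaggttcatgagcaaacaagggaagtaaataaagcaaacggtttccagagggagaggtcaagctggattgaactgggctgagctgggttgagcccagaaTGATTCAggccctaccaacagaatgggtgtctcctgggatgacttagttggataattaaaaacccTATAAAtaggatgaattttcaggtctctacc

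All 10 members had a promoter in the RefSeq table. The AP-1 letters were found in 6 of the 10 (Lor, Ivl, Flg, Flg2, Rptn and Krtdap) and in 6.75% of all 32851 promoter windows of the same length. They stood 48 bases before the start in Lor, 69 in Flg2, 81 in Krtdap, 96 in Rptn, 103 in Flg and 116 in Ivl. TATAAA was found in 7 members and in 12.4% of all windows. The short letters CACCC, as in sites of Klf factors, were in 7 members and in 52.0% of all windows, and AGATAA, as in GATA sites, in 2 members and in 9.99%. Neither AACCGGTT (grainyhead type, 0.116% of windows) nor TTGCGCAA (C/EBP type, 0.164%) was found in a member. The promoters of Flg and Flg2 share a run of 12 bases, ccatcccacaga, shortly after the AP-1 letters. Those of Ivl and Krtdap, on different chromosomes, share a longer run, of 13 bases, that includes TATAAA. These matches are descriptions of letters in a window of the genome.

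Levels of different genes were compared as CPM per kilobase of annotated exon. Krtdap, a small secreted protein of differentiating keratinocytes, was highest at 2767 ± 459.8 CPM per kb (mean ± SD over all 6 libraries), followed by Cnfn, a small envelope protein, at 1759.6 ± 177.6. Next came Lor at 205.8 ± 28.6, Rptn at 165.3 ± 25.6 and Tgm3, a transglutaminase that joins envelope proteins, at 95.6 ± 14.01. Hrnr stood at 18.5 ± 5.99 and Flg at 2.84 ± 1.01. Tchh, known from the hair inner root sheath and tongue papillae, reached 1.47 ± 0.0841, Ivl 1.19 ± 0.184 and Flg2 0.0225 ± 0.0124, the lowest of the 10. Ranges over the 6 libraries overlapped for Lor with Rptn and for Tchh with Ivl, and were apart for the other 7 pairs of neighbours in this order.

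**Figure D1:**
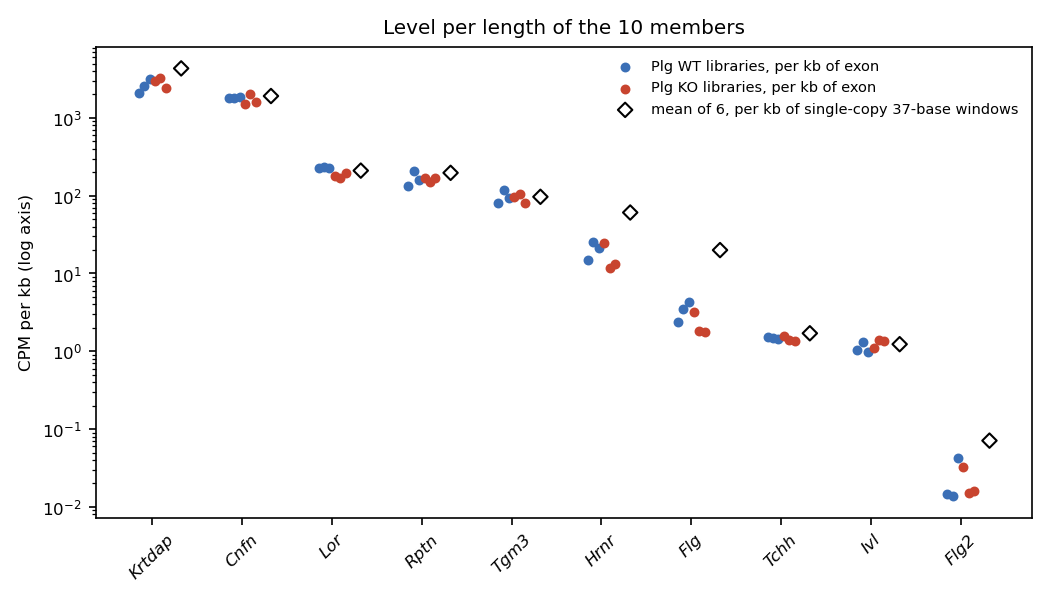
Level of each gene in CPM per kb of annotated exon (log axis), 1 point per library, blue for Plg WT and red for Plg KO, with the genes ordered by their mean. Open diamonds give the mean of 6 libraries per kb of 37-base windows that occur once, where Flg stands at 19.99 and Hrnr at 60.8 instead of 2.84 and 18.5.

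Dividing by the length of windows that occur once, in place of exon length, left this order as it was but moved several levels. Flg went from 2.84 to 19.99 CPM per kb, Hrnr from 18.5 to 60.8 and Flg2 from 0.0225 to 0.0711. Krtdap, which has no repeated window, went from 2767 to 4329.7, because 679 bases of annotated exon were replaced by 434 windows of its longest transcript. The second scale takes reads from repeats as not counted, and which scale is nearer the truth was not tested. Genes annotated across members on either strand added little. Gm37245, which lies across Hrnr, Rptn and Tchh on the other strand, had 1 count over all libraries, and Rplp0-ps1, inside Flg, had 296.

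The comparison of the genotypes asks whether transcripts of the cornifying layer differ in gingiva without plasminogen. No member passed the test in either direction. Rptn, Cnfn, Tchh and Tgm3 had near equal group means, Lor was lower in each Plg KO library without passing, and Flg and Hrnr varied more between libraries of 1 group than between the group means. By edgeR's quasi-likelihood F test, adjusted by Benjamini-Hochberg over 17757 genes, 0 of 10 members were called higher (0.191% of all genes) and 0 lower (0.0451%), so 0 in either direction (0.237%). DESeq2 called 0 members (2.1% of all genes) and limma-voom 0 (0.231%). Before adjustment 1 member, Lor, had p under 0.05, as did 9.25% of all genes. The median log2 difference (Plg KO minus Plg WT) of the members was -0.07, against -0.00 for all tested genes, with 8 negative and 2 positive, where 50.8% of all genes were negative. As these are bulk samples, fewer cells of a type and less RNA per cell cannot be told apart for any of them.

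**Figure D2:**
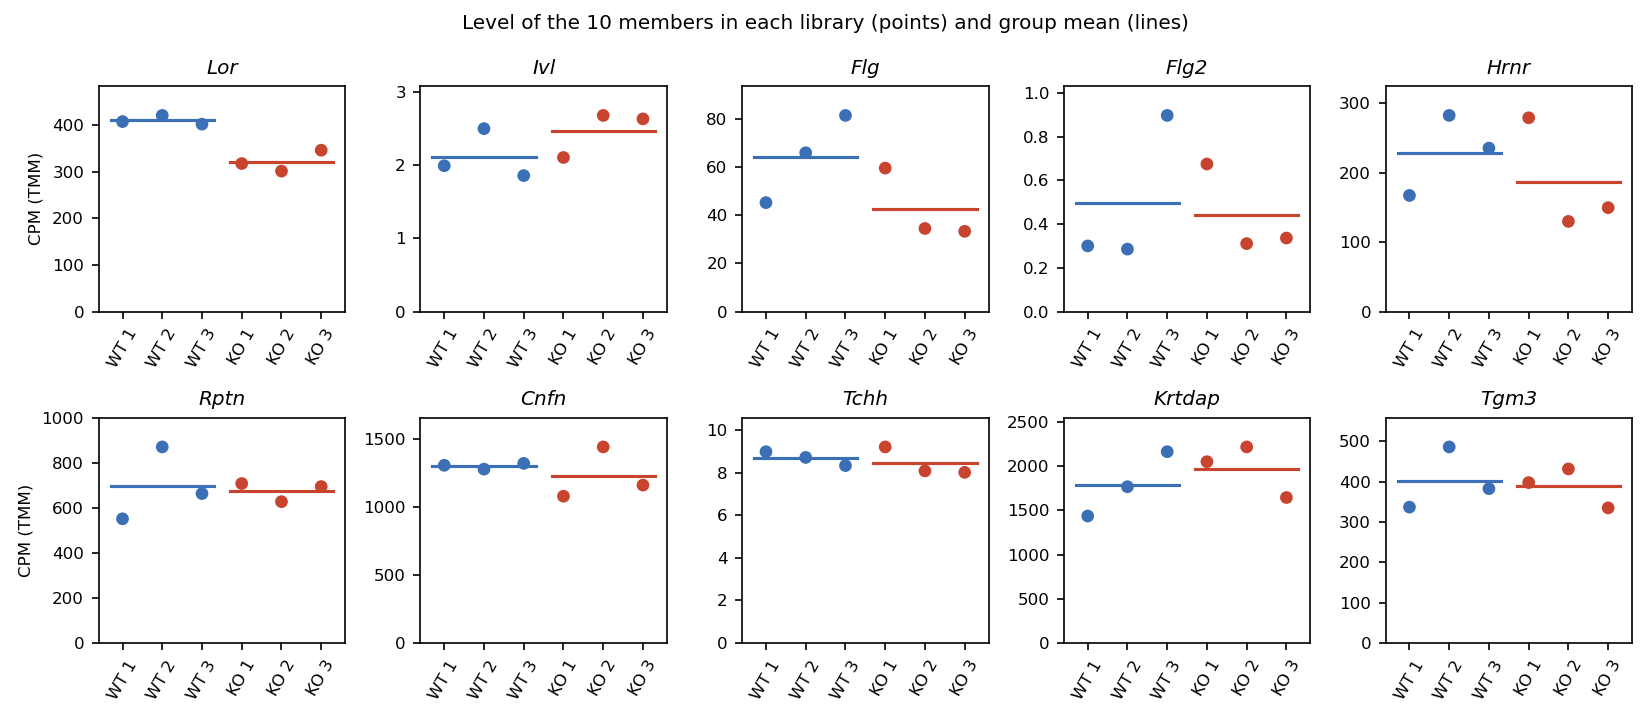
CPM of each gene (vertical axis from 0) in the 3 Plg WT libraries (blue) and the 3 Plg KO libraries (red), with lines at the group means. Lor is the gene whose groups are apart, at 402.4 to 421.1 against 301.6 to 346.4 CPM, and the groups of the other 9 genes overlap.

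Lor (ENSMUSG00000043165, GRCm38 chromosome 3, 92080271 to 92083142), for loricrin, the main protein of the mature envelope in skin, measured 407.9, 421.1 and 402.4 CPM in Plg WT libraries 1, 2 and 3. Plg KO libraries 1, 2 and 3 measured 317.8, 301.6 and 346.4 CPM. Every Plg KO library lay below every Plg WT library. The means were 410.5 ± 9.63 and 321.9 ± 22.7 CPM (SD, n = 3 each), a log2 difference of -0.35 ± 0.09 (SE), and edgeR's F test gave a Benjamini-Hochberg adjusted p of 0.253. Groups that do not overlap were seen in 1 of 10 members and in 14.7% of all genes, and with Plg KO below Plg WT in 7.18%, so 1 member in 10 is near the background. The log2 difference of Lor lay between -0.41 and -0.31 in the alternative fits, with adjusted p from 0.0901 (DESeq2) to 0.762 (edgeR without Plg KO 2).

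Some markers of other cells had groups apart, as Lor had. Of 3 junctional epithelium markers, a lining that does not cornify, 2 were in the table, and their sum was 625.9 to 796.6 CPM over the Plg WT libraries and 1005 to 1100.1 CPM over the Plg KO libraries. Nearly all of it was Odam, which was higher in every Plg KO library, with a log2 difference of 0.58 ± 0.12 that did not pass (adjusted p = 0.166 by edgeR). Sums over 7 fibroblast markers were 2218 to 3746 CPM and 1414 to 2606 CPM, and overlapped. Among these, Dcn and Pdgfra, named after their values were seen, were lower in every Plg KO library, with log2 differences of -0.44 ± 0.19 and -0.73 ± 0.22 that did not pass (adjusted p = 0.535 and 0.318 by edgeR). Among 7 basal epithelium markers, Col17a1 was lower and Itgb4 higher in every Plg KO library, both named after their values were seen. Their log2 differences were -0.43 ± 0.11 and 0.35 ± 0.12, and neither passed (adjusted p = 0.254 and 0.393 by edgeR). The part of these cells in the Lor values was not tested.

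Ivl (ENSMUSG00000049128, chromosome 3, 92570902 to 92573735), for involucrin, measured 1.99, 2.499 and 1.86 CPM in the Plg WT libraries against 2.11, 2.68 and 2.63 CPM in the Plg KO libraries. These rest on 58 to 94 counts per library. Its groups overlapped, with a log2 difference of 0.22 ± 0.23. Cnfn (ENSMUSG00000063651, chromosome 7, 25367620 to 25369724), for cornifelin, measured 1307, 1279 and 1321 CPM in the Plg WT libraries against 1079.9, 1442 and 1162 CPM in the Plg KO libraries. Plg KO libraries lay on both sides of the Plg WT libraries, which were within 3.32% of each other, and the log2 difference was -0.08 ± 0.13.

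Krtdap (ENSMUSG00000074199, chromosome 7, 30787896 to 30791097), a product of keratinocytes that have left the basal layer, measured 1435, 1766 and 2162 CPM in the Plg WT libraries against 2049, 2216 and 1645 CPM in the Plg KO libraries. Its range among the Plg WT libraries was wider than the difference of the group means, a log2 difference of 0.14 ± 0.18. Tgm3 (ENSMUSG00000027401, chromosome 2, 130012349 to 130050399) measured 337.1, 486.3 and 382.8 CPM in the Plg WT libraries against 397.8, 431.8 and 335.1 CPM in the Plg KO libraries. The groups overlapped over most of their range, with a log2 difference of -0.05 ± 0.16.

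Flg (ENSMUSG00000102439, chromosome 3, 93273523 to 93293686), for filaggrin, measured 45.3, 66.0 and 81.5 CPM in Plg WT libraries 1, 2 and 3 against 59.6, 34.5 and 33.4 CPM in Plg KO libraries 1, 2 and 3. Plg WT 1 lay below Plg KO 1, so the groups overlapped. The means were 64.3 ± 18.2 and 42.5 ± 14.8 CPM (SD, n = 3 each), a log2 difference of -0.60 ± 0.28, for which edgeR's F test gave an adjusted p of 0.593. Hrnr (ENSMUSG00000041991, chromosome 3, 93319749 to 93333570), for hornerin, measured 167.0, 282.2 and 235.2 CPM in the Plg WT libraries against 278.8, 129.7 and 149.5 CPM in the Plg KO libraries. Its highest Plg KO library stood 2.15-fold above its lowest. The log2 difference was -0.29 ± 0.31, with an adjusted p of 0.844 by edgeR.

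Rptn (ENSMUSG00000041984, chromosome 3, 93393699 to 93399442), for repetin, measured 551.2, 869.9 and 662.8 CPM in the Plg WT libraries against 707.6, 627.1 and 694.1 CPM in the Plg KO libraries. The Plg KO libraries lay inside the Plg WT range, with a log2 difference of -0.04 ± 0.17. Tchh (ENSMUSG00000052415, chromosome 3, 93442330 to 93449077), for trichohyalin, measured 8.98, 8.71 and 8.33 CPM in the Plg WT libraries against 9.20, 8.08 and 8.01 CPM in the Plg KO libraries. It varied least of the 10, with a coefficient of variation of 5.73% over the 6 libraries and a log2 difference of -0.04 ± 0.13.

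Flg2 (ENSMUSG00000049133, chromosome 3, 93197278 to 93221391), for filaggrin-2, was the scarcest, with 11, 8 and 28 counts in the Plg WT libraries against 25, 8 and 12 counts in the Plg KO libraries. Its log2 difference was -0.14 ± 0.58. The libraries with 28 and 25 counts, Plg WT 3 and Plg KO 1, were also those in which the Y-linked gene Ddx3y had 1475 and 1838 counts, against at most 2 elsewhere. With a term for sex in the fit the log2 difference of Flg2 between genotypes was -0.08, and that of Flg -0.62 (adjusted p = 0.210 by edgeR). Whether Flg2 itself differs by sex was not tested.

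**Figure D3:**
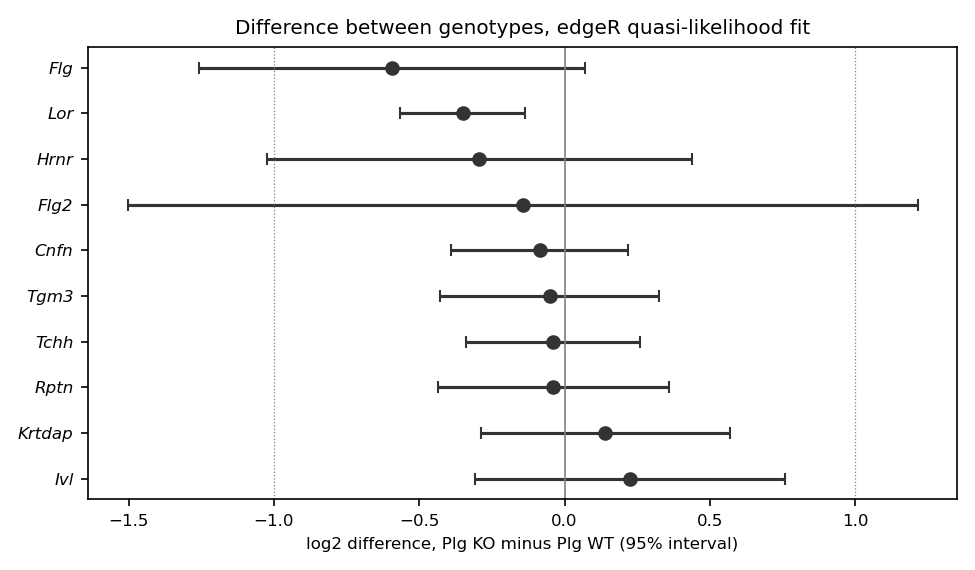
Log2 difference between Plg KO and Plg WT (horizontal axis) for each gene, with its 95% interval from the edgeR fit, the solid line at 0 and dotted lines at a 2-fold difference either way. The intervals of 7 genes lie within 2-fold, and those of Flg, Flg2 and Hrnr reach beyond it.

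The intervals say how large a difference these libraries leave room for. For 7 members the 95% interval of the ratio of Plg KO to Plg WT lay within 2-fold either way, and for 6 of these (Lor, Rptn, Cnfn, Tchh, Krtdap and Tgm3) within 1.5-fold. For Tchh it ran from 0.791 to 1.20, for Cnfn from 0.763 to 1.16 and for Rptn from 0.739 to 1.28. The interval of Lor, unadjusted for the number of genes, ran from 0.676 to 0.910. Those of Flg, at 0.418 to 1.05, Hrnr, at 0.491 to 1.35, and Flg2, at 0.353 to 2.32, left room for a change of 2-fold or more.

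Flg and Hrnr shared the same high and low libraries. In both, Plg WT 1, Plg KO 2 and Plg KO 3 were the 3 lowest, at 33.4 to 45.3 CPM for Flg, against 59.6 to 81.5 CPM in the other 3. For Hrnr the values were 129.7 to 167.0 and 235.2 to 282.2 CPM. The same 3 libraries were lowest for Crnn, for cornulin, another filaggrin-type gene (407.3 to 606.3 against 786.9 to 965.0 CPM), for the keratin Krt10 of cornifying layers (179.5 to 343.7 against 480.9 to 561.7 CPM) and for Krt76 (3079 to 4385 against 5335 to 5822 CPM). They were lowest for all 13 tested Lce1 genes, for 1 of 6 Lce3 genes and for 11.2% of all tested genes. Among keratins, 3 of 8 tested for cornifying epithelium had this order, and 3 of 6 for non-cornifying epithelium. Among genes for cross-linking and scaffold proteins 5 of 13 had it. The other 8 members did not have this order. Flg2, which rests on 8 to 28 counts per library and is not in the plot of profiles, ran from -0.48 (Plg WT 2) to 0.98 (Plg WT 3) around its own log2 mean, the widest spread of the 10. The order was noticed in these values and then counted in the same values. It crosses the genotypes, since 1 Plg WT library is low and 1 Plg KO library is high. Ddx3y had 0, 0 and 1 counts in the low libraries Plg WT 1, Plg KO 2 and Plg KO 3. In the high libraries Plg WT 2, Plg WT 3 and Plg KO 1 it had 2, 1475 and 1838 counts. Whether Flg or Hrnr differs by sex was not tested.

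**Figure D4:**
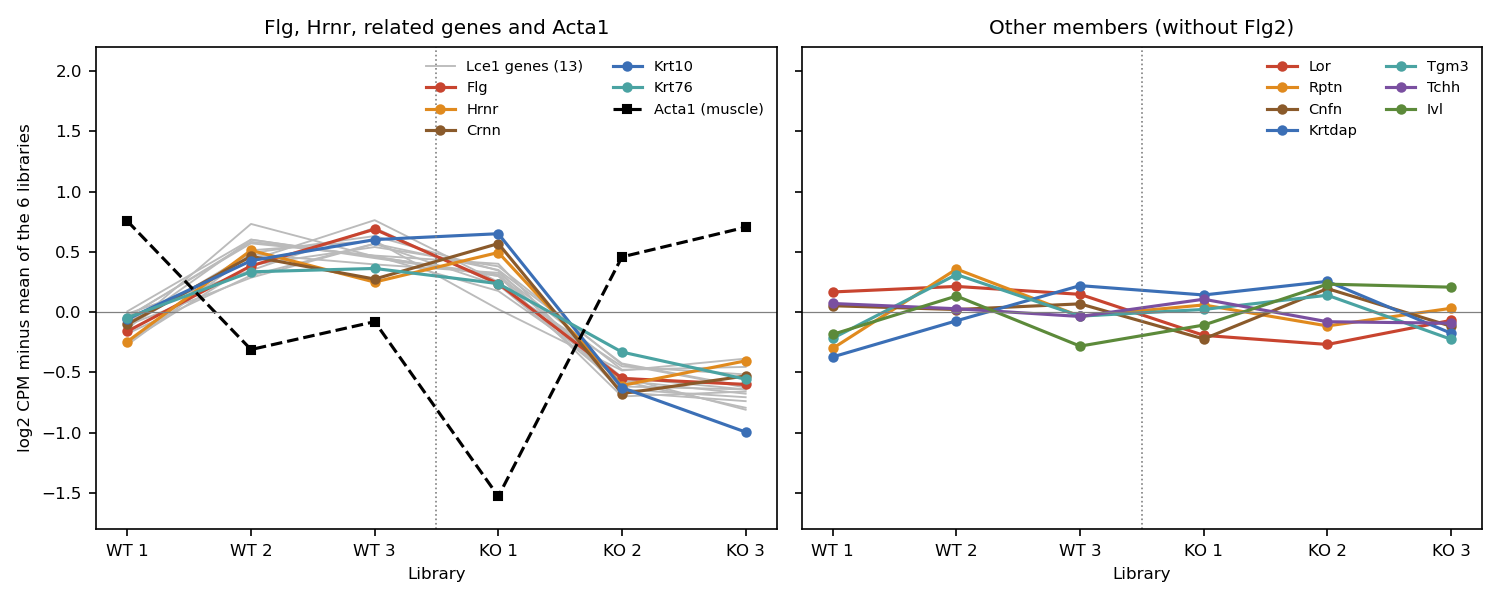
Log2 CPM of single genes minus their own mean over the 6 libraries, with Plg WT left and Plg KO right of the dotted line, and lines that only join the points of 1 gene. On the left Flg, Hrnr, Crnn, Krt10, Krt76 and the Lce1 genes are lowest in WT 1, KO 2 and KO 3, where the muscle gene Acta1 is highest, and on the right 7 other members, without Flg2, lie between -0.37 and 0.36.

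Markers of some other tissues moved with this order. All 8 skeletal muscle markers were in the table, and their sum was 10509, 9234 and 11038 CPM in Plg WT 1, Plg KO 2 and Plg KO 3, against 5574, 6751 and 2387 CPM in Plg WT 2, Plg WT 3 and Plg KO 1. Sums over 10 salivary gland markers, 4 of them under 1 CPM and Prol1 at 0 throughout, were 942.8, 722.6 and 951.3 CPM against 205.1, 203.4 and 592.4 CPM in the same order of libraries. Those over 7 basal epithelium markers were 17832, 18010 and 16061 CPM against 19507, 18463 and 18780 CPM. Krt14, the most abundant of these, did not follow the order, at 15606 CPM in Plg KO 2 against 15438 CPM in Plg WT 3. Krt5 did not either, and was highest in Plg WT 1, at 1493 CPM. Fibroblast sums did not follow the order, at 2429, 1414 and 2606 CPM against 3746, 2218 and 2298 CPM. Muscle and salivary sums were thus highest in the libraries where Flg and Hrnr were lowest. Basal epithelium sums were lowest there, though Krt14 and Krt5 singly were not. The part of these tissues in the Flg and Hrnr values was not tested. Without Plg KO 1, the high Plg KO library, the log2 difference of Flg was -0.93 (adjusted p = 0.301 by edgeR) and that of Hrnr -0.71 (adjusted p = 0.375). Without Plg KO 2 they were -0.47 and -0.09, and Hrnr was at -0.16 without Plg KO 3 and -0.11 without Plg WT 2.

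Likeness to the members was measured as the root mean square distance between centred log2 CPM profiles over the 6 libraries, among 13168 genes. Nearest to the mean profile of the members were Eef1a1, Pkp4, Rufy3, Rsl24d1 and Emp2, at 0.0189 to 0.0265 log2 units. That mean profile averages members whose libraries rank in different orders. Profiles of single members were examined after their values were seen. Nearest to Flg were Lce1d, Lce1a2, Lce1g, Lce1f and Lce1b, at 0.0696 to 0.0937. Nearest to Hrnr were, in this order, Sinhcaf, Ninl, Crnn, Lce1c and Mesp2, at 0.0837 to 0.110. The gene nearest to Lor was Gpt, at 0.0440.

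The Lce proteins are small and are cross-linked into the envelope late. Of 21 Lce genes 19 were tested and edgeR, DESeq2 and limma-voom each called 0, with raw p under 0.05 for 4 lower and 0 higher genes and a median log2 difference of -0.48. Of all 17757 genes, 759 lower and 883 higher had a raw p under 0.05 by edgeR. That background also holds for the lists below. Differences of the 13 Lce1 genes ran from -0.71 to -0.39, and their groups overlapped in every case. Up to 46.9% of the 37-base windows of an Lce1 gene also occur in transcripts of other genes, so these are not 13 independent readings. Among the 6 Lce3 genes the median was -0.12. Of their windows, 20.9% (Lce3b) to 57.1% (Lce3d) also occur in transcripts of other genes, so the same limit holds for them. Lce3c measured 670.3 ± 53.3 CPM in the Plg WT libraries against 557.4 ± 8.08 in the Plg KO libraries (SD, n = 3 each), Lce1h 25.5 ± 5.50 against 16.2 ± 5.37, and Lce1a1 108.5 ± 31.7 against 71.8 ± 13.96.

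The Sprr proteins, which bridge other proteins of the envelope, are encoded on the same stretch of chromosome 3. Of 13 tested genes, Sprr2e and Sprr2f were called higher by edgeR and by limma-voom, and DESeq2 called 5. Over all genes edgeR called 0.191% higher, and limma-voom and DESeq2 called 0.231% and 2.1% in either direction. Sprr2e rose from 2.78 ± 0.794 to 13.9 ± 2.90 CPM, a log2 change of 2.32 ± 0.26 (Benjamini-Hochberg adjusted p = 0.0245 by edgeR), and Sprr2f from 16.9 ± 2.77 to 56.8 ± 9.92 CPM, a log2 change of 1.75 ± 0.17 (adjusted p = 0.0198). For Sprr2d the log2 difference was 0.85 ± 0.12 (adjusted p = 0.0538). The Sprr2 genes are close relatives, and the split of reads between them is uncertain. From the start of Lor to the end of Tchh, 92080271 to 93449077, the annotation places 85 genes, of which 52 were tested. Of these 2 were called higher, both Sprr2, and 0 lower, with 18 differences positive and 34 negative.

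**Figure D5:**
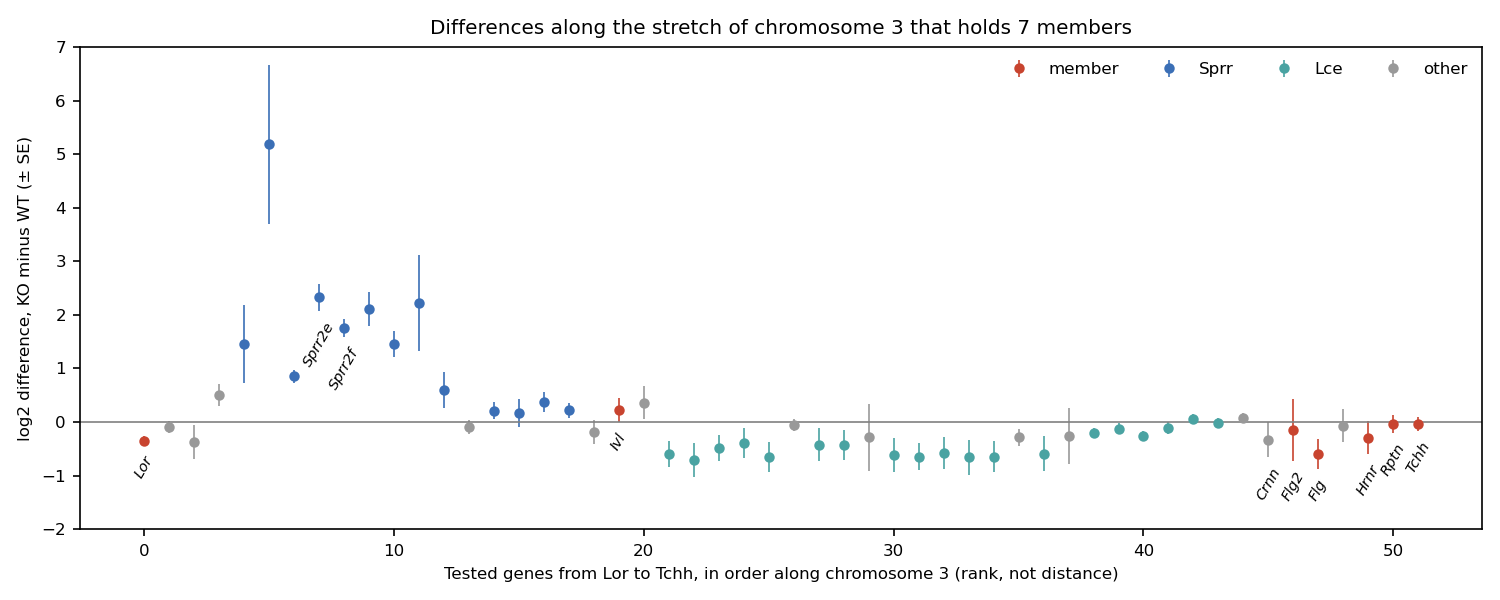
Log2 difference between Plg KO and Plg WT (± SE) for the 52 tested genes from Lor to Tchh in their order along chromosome 3, by rank and not by distance. The Sprr2 block lies above 0, with Sprr2e at 2.32 and Sprr2f at 1.75, the Lce1 block at -0.71 to -0.39, and the members (red) between -0.60 and 0.22.

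Genes that build, process or seal the cornified layer were read from the same fit. Among 13 genes for cross-linking and scaffold proteins each of the 3 tools called 0, none had a raw p under 0.05, and the median log2 difference was -0.11. Corneodesmosin, Cdsn, which holds corneocytes together, measured 499.6 ± 144.7 CPM in the Plg WT libraries against 385.5 ± 43.1 in the Plg KO libraries, Kprp 146.6 ± 34.7 against 120.2 ± 6.79, and the cystatin Cst6 142.2 ± 19.2 against 124.5 ± 9.74. Tgm1, a membrane-bound transglutaminase chosen after its value was seen, stood at 0.01 ± 0.12. Among 13 tested filaggrin-processing genes each tool called 0, none had a raw p under 0.05, and the median was 0.04. Padi1, which citrullinates filaggrin, had a log2 difference of -0.50 ± 0.21, the protease Klk5 -0.54 ± 0.32 and the membrane protease St14 0.20 ± 0.11. Padi1 was lowest in the same 3 libraries as Flg, as were 5 of these 13 genes.

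Among 17 tested barrier lipid genes each tool called 0, 1 higher gene had a raw p under 0.05, and the median was 0.04. The lipase Lipk differed by 0.38 ± 0.13 on the log2 scale, the cytochrome Cyp4f39 by -0.25 ± 0.13 and the fatty acid hydroxylase Fa2h, with means of 1.16 and 0.356 CPM, by -1.64 ± 0.80. Among 8 tested keratins of cornifying epithelium each tool called 0, 1 lower gene had a raw p under 0.05, and the median was -0.25. Krt76 measured 5306 ± 799 CPM in the Plg WT libraries against 4005 ± 1182 in the Plg KO libraries (SD, n = 3 each), Krt6a 3676 ± 362 against 3144 ± 570, and Krt2, a keratin of the upper epidermis, 1.05 ± 0.663 against 0.279 ± 0.180. Among 6 keratins of non-cornifying epithelium each tool called 0 and none had a raw p under 0.05, with log2 differences of -0.51 ± 0.23 for Krt80, -0.16 ± 0.12 for Krt78 and -0.25 ± 0.21 for Krt24.

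Among 22 regulators of terminal differentiation each tool called 0, and the median was -0.08. Raw p was under 0.05 for 1 higher and 1 lower gene. The lower gene was Rora, while Rxra had a raw p of 0.065 by edgeR. The nuclear receptor Rora measured 72.7 ± 10.96 CPM in the Plg WT libraries against 53.3 ± 8.13 in the Plg KO libraries, and the retinoid receptor Rxra 39.1 ± 2.22 against 34.3 ± 0.808 (SD, n = 3 each). The groups of both did not overlap, which held for 14.7% of all genes. Neutrophil markers summed to 37.3 to 76.9 CPM over the Plg WT libraries and 152.3 to 508.5 CPM over the Plg KO libraries. Most of each sum was S100a8 and S100a9. Their means were 20.3 and 25.8 CPM in the Plg WT libraries and 124.9 and 139.7 CPM in the Plg KO libraries. Of the neutrophil markers, 1 of 8 tested, Clec4e (named after its value was seen), was called higher. The part of neutrophils in the member values was not tested.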

How the data were processed

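Gingiva libraries were made with Nextera XT and sequenced in paired reads of 37 bases, per the labels' protocols. That kit does not mark strand. Per the submitters' processing notes, STAR 2.5.2a, DESeq2, edgeR and limma were used, with builds GRCm38.p3 and mm10. No source used here gives their roles or the counting. The authors deposited raw counts for 48709 genes, with 22 entries that name no gene (at most 3.55e-05% of a library, left out), and CPM values for 21948 genes, which a file header pairs with symbols. Each deposited CPM column gave whole reads for 100% of values (tolerance 0.01), equal to the raw counts.

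The main test was edgeR 4.0.16 (R 4.3.3) quasi-likelihood on counts, with TMM, filterByExpr, genotype only, and Benjamini-Hochberg adjustment over 17757 genes, called at an adjusted p under 0.05. SE is the log2 difference divided by the square root of F. The fit was tested on counts simulated with the same dispersion for every gene. It called 36 of 97 genes with a 2-fold change and 96 of 99 with a 4-fold change. Of 17629 genes without a change it called 10. Alternatives were DESeq2 1.42.0, limma 3.58.1 (voom, and trend on log2 of deposited CPM plus 0.5 or 2), other scalings and filters, added terms and left-out libraries. Any pair of libraries differed beyond sampling noise (chi-square per degree of freedom 21.4 to 111.4). The genes named are all members, the 3 genes with the smallest p in each list, the 2 most abundant markers and the 5 nearest profiles, apart from those said to be chosen later. One gene that this rule names is not reported here. The members and lists were chosen with earlier results of these data known. Positions came from GENCODE M21 on GRCm38, promoters from RefSeq on GRCm38.p6.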

Additional observations from a re-analysis of the deposited data

How the results depend on the processing

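Over 19 alternatives, 0 members were called in any fit. Counts of all genes called (34 higher and 8 lower) moved to 263 and 132 in DESeq2, 122 and 40 with no filter on low counts, and 95 and 26 at an adjusted p under 0.10, and the higher count to 54 with a term for sex and the lower count to 13 with limma-trend on log2 of CPM plus 0.5. Leaving out 1 library gave 1 to 184 higher and 1 to 35 lower, with the most when Plg WT 1 was left out and at most 2 in either direction when Plg WT 2, Plg WT 3, Plg KO 2 or Plg KO 3 was. With the replicate number as a block there were 2 higher and 0 lower. Same-numbered libraries deviated with correlations of -0.26, -0.01 and -0.22, so the labels' numbers were not taken as pairs. Leaving out 1 library at a time, log2 differences near 0 changed sign. Rptn ranged from -0.18 (Plg WT 1 left out) to 0.16 (Plg WT 2), with 0.01 for Plg KO 2. Tgm3 ranged from -0.16 (Plg WT 1) to 0.11 (Plg WT 2), with 0.04 for Plg KO 3. Flg2 ranged from -0.60 (Plg KO 1) to 0.60 (Plg WT 3), with 0.04 for Plg KO 2 and 0.03 for Plg KO 3. The cause was not tested. The other 7 members kept their sign, with Flg between -0.93 and -0.39 and Hrnr between -0.71 and -0.09. The median of the members lay between -0.17 and -0.03 in these fits. Flg2 was not tested under the filter at 1 CPM. Depth limits Flg2 and Ivl, and repeats limit the levels of Flg, Flg2 and Hrnr.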
